A study of Arabidopsis thaliana with 4 samples.

Results

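Internal introns retained at low level are introns, other than the first of their transcript model, that stay in a small share of the mRNA of their gene. They were chosen from the authors' table of splicing events by 4 conditions: the event is a retained intron, its number in the model is 2 or more, its gene has fewer than 5 retained introns in the table, and the percent retained is below 15 in total mRNA both in the light and in the dark. The conditions select 4883 of the 13845 retained introns, and of 22449 splicing events of all kinds, in 3704 genes. The percents in total mRNA therefore chose these introns, and what is said of them below in total mRNA is a description. The seedlings were wild-type Arabidopsis thaliana of the accession Col-0, grown for 4 days in darkness at 22 °C. One group then received white light of 100 µmol m-2 s-1 for 4 h, and the other stayed dark. From each, both total mRNA and polysomal mRNA (the part carried by several ribosomes) were sequenced, with 1 library for each of the 4 groups, so no difference below has a replicate check. Whole seedlings were used, so a change in the cells of a tissue and a change in RNA per cell cannot be told apart, and the polysomal RNA was extracted by another method than the total RNA, so that extraction and fraction cannot be told apart either.

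In splicing, the spliceosome recognises the start of an intron (the donor site), an internal branch point and the end (the acceptor site), and cuts the intron out. Most introns begin with GT, end with AG and are handled by the U2 spliceosome, while a minor class with a highly conserved start, some of them running from AT to AC, is handled by the U12 spliceosome. Intron retention is the most common form of alternative splicing in plants. A retained intron in a coding sequence often brings a stop codon into the reading frame, and such mRNAs can be held in the nucleus or degraded by nonsense-mediated decay.

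The sequences of a few of these introns are printed here. They were picked for their ends, values, length or reading frame and are not typical of the class. Of the placed members, 98.2% run from GT to AG and 0.268% from AT to AC. All printed sequences are given on the TAIR10.1 build, as RefSeq holds it, 5′ to 3′ on the strand of the gene. The first bases and the last 3 bases of the intron are in capitals. The first set is of AT-AC introns, shown because introns of the U12 type take a larger share of this class than of the annotated introns that were not listed as retained. They come from HRB1 (named for its response to red and blue light), from the 2 loci AT1G02750 and AT3G05700, which the annotation places with HRB1 in the drought-responsive family, from HD2C and HDT4, plant histone deacetylases of the HD2 type, and from CBP20, a subunit of the nuclear cap-binding complex. The first 8 bases are in capitals.
HRB1 intron 3, chr5:19959474-19959564, minus strand: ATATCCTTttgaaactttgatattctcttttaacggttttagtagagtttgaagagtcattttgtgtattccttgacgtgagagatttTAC
AT1G02750 intron 3, chr1:603679-603774, plus strand: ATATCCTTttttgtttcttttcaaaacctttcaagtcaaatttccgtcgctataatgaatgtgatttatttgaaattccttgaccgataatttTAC
AT3G05700 intron 3, chr3:1683071-1683171, minus strand: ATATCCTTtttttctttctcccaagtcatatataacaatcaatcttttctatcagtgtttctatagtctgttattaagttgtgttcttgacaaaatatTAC
HD2C intron 3, chr5:982699-982811, plus strand: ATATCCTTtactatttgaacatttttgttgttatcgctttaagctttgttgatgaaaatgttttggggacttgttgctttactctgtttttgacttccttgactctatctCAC
HDT4 intron 3, chr2:11862926-11863037, plus strand: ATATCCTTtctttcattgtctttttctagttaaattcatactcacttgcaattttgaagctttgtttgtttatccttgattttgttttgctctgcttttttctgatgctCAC
CBP20 intron 4, chr5:17802949-17803082, minus strand: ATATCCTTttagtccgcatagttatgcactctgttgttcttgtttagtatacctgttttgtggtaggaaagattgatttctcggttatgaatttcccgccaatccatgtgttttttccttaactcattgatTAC
All 6 start with the same 8 bases, ATATCCTT, and all 6 lie in coding sequence. They are a choice from 13 AT-AC members, and not all of the 13 start so. AT3G08880 intron 2 starts with ATAAGTAT and GSH2 intron 6 with ATATCCTC.

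The second set is shown for its values in light and dark. BBX17 encodes a B-box zinc finger protein, XTH15 a xyloglucan endotransglucosylase/hydrolase that remodels the cell wall, and PORB and PORC protochlorophyllide reductases, which make a chlorophyll precursor in the light. The first 6 bases, the part of the intron in the donor site, are in capitals.
BBX17 intron 2, chr1:18174921-18175031, minus strand: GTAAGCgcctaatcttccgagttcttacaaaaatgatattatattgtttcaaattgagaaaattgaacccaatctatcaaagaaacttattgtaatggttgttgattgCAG
XTH15 intron 2, chr4:8137561-8137638, minus strand: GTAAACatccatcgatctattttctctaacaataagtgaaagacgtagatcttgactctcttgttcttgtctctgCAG
PORB intron 2, chr4:13726422-13726499, plus strand: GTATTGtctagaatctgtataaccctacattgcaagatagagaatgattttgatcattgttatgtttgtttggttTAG
PORC intron 2, chr1:907948-908032, plus strand: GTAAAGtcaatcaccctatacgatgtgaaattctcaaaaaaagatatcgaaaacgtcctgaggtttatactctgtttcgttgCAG
The third set holds the shortest placed member of a gene with a symbol, in RDH2, a sulfurtransferase of the rhodanese type, a member of FRA8, a glycosyltransferase of xylan synthesis, that keeps the reading frame open, and a pair whose polysomal percents lie far apart between light and dark in opposite directions, in ECT5, a YTH-domain protein, and NFU3, a plastid iron-sulfur cluster scaffold.
RDH2 intron 10, chr1:5620106-5620166, minus strand: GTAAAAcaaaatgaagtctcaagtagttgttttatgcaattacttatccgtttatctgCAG
FRA8 intron 2, chr2:11978835-11978909, minus strand: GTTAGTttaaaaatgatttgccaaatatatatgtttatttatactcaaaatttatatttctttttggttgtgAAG
ECT5 intron 6, chr3:4182914-4182994, plus strand: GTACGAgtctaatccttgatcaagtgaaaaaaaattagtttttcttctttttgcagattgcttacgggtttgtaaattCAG
NFU3 intron 2, chr4:13164433-13164507, plus strand: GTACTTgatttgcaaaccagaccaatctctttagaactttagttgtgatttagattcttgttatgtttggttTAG
All 8 of these run from GT to AG and are at most 111 bases long.

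The reads listed over all genes numbered 91087442 in total mRNA in the light, 64950412 in total mRNA in the dark, 61006149 in polysomal mRNA in the light and 77849944 in polysomal mRNA in the dark. Genes known for their response to light went with the labels: ELIP1, an early light-induced protein, stood at 155.73 RPKM in light and 1.74 RPKM in dark in total mRNA, and PORA, the reductase of dark-grown seedlings, at 2 RPKM in light and 109.67 RPKM in dark. RPKM counts the reads of a gene per kilobase of its length, relative to the library size. Per the file headers, the percent of an intron is the share of reads that carry the event. Tested on the values, it equals the event reads divided by the event reads plus an even number for 100% of retained introns in both libraries, so spliced reads appear to count double in it. The 95% intervals below are exact binomial ones on the reads behind each percent, put on the same scale, and they cover counting error only. Called higher or lower means a percent at least 1.5-fold apart, the bound the authors set for their own list.

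The median member was retained at 6.52% in light and at 5.88% in dark. The quartiles of the members lay between 5.01% and 8.96% in light and between 3.66% and 8.64% in dark. The median member had 13 event reads in light and 8 in dark, so single introns are known only roughly: with fewer than 5 event reads stood 569 members in light and 1367 in dark. The table lists an intron when it reaches 5% in at least 1 of the libraries. Of the members, 1948 reached 5% in both, 1728 in the light only and 1207 in the dark only. The light library is the deeper of the pair, and its part in this imbalance was not tested. Just inside the bound of the choice lay introns of NPGR1 (14.95% in light, 10.5% in dark), PTAC5 (14.95% and 6.90%) and CRK29 (14.94% and 10.9%), and just outside it introns of MCM9, CSLB01 and BRIZ1, each at 15% in light and at 7.14%, 8.33% and 7.54% in dark.

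**Figure D1:**
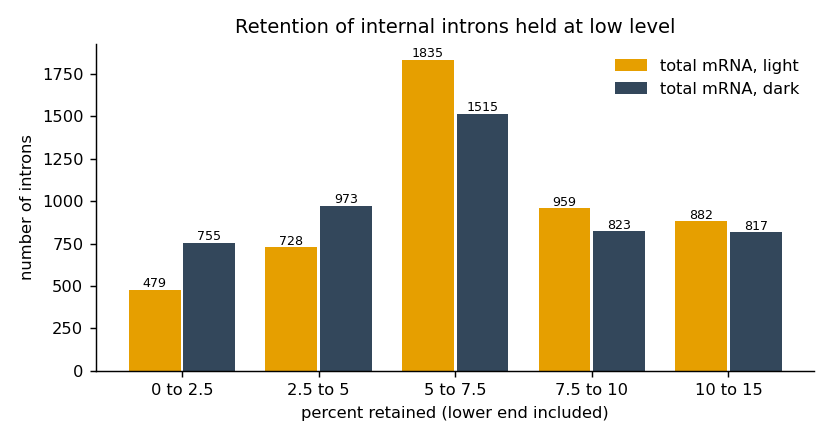
Number of internal introns retained at low level in each class of percent retained, in total mRNA in the light (left bars) and in the dark (right bars), 1 library each. The class from 5 to 7.5% is the fullest, with 1835 introns in light and 1515 in dark, and the classes below 5% hold more introns in the dark.

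The first comparison asked how retention in total mRNA differed after light. Of the 4883 members, 1842 (37.7%) were higher in light and 1304 (26.7%) lower, with a median log2 ratio of 0.18. Over all retained introns 29.1% were higher and 24.4% lower, with a median of 0.02, and since the choice of members used these percents nothing is read from the difference. A count of 1 read is more common in the table than a count of 2 (232 against 106 members in light, 677 against 259 in dark), so a listed 1 may stand for 0. Without the 909 members listed with 1 read in either library, 1227 of 3974 (30.9%) were higher and 1068 (26.9%) lower, with a median of 0.05, against 23.0% higher and 23.8% lower of 11805 retained introns without such a listing, with a median of 0.003. The authors' deposited table of light-regulated events holds 848 members, 431 higher and 417 lower in light, that is 17.4% of members against 19.5% of all retained introns (9.27% of all retained introns higher, 10.2% lower).

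Members that were higher in light include introns of genes of quite different roles. Intron 2 of BBX17 was retained at 11.6% in light (10 reads, interval 5.52 to 21.2%) and 0.382% in dark (4 reads, 0.104 to 0.977%). XTH15 intron 2 stood at 6.38% in light (154 reads, 5.41 to 7.47%) and 1.77% in dark (337 reads, 1.59 to 1.97%). The intervals of light and dark are apart in both genes, and in the authors' deposited table XTH15 has the smallest p-value among the members it holds, 8.15e-49. Intron 14 of ALATS, an alanyl-tRNA synthetase, stood at 13.9% in light (294 reads) and 5.06% in dark (70 reads). Intron 9 of ASN1, an asparagine synthetase known as a dark-induced gene, stood at 6.83% in light (326 reads) and 3.02% in dark (625 reads). Among genes with a symbol, the largest ratios with at least 10 event reads in each library were in bHLH121, a transcription factor of the iron response, whose intron 4 stood at 5.12% in light and 1.08% in dark, and in BCDH BETA1, a subunit of the branched-chain ketoacid dehydrogenase, whose intron 3 stood at 7.37% in light and 1.64% in dark. Next came ABCB4, an auxin transporter (intron 9, 9.09% in light and 2.15% in dark), JMJD5, a JmjC-domain protein linked to the clock (intron 5, 13.0% and 3.15%), and ckl8, a casein kinase (intron 13, 5.32% and 1.40%). The light and dark intervals do not overlap in any of these 5.

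Other members were lower in light. PORC intron 2 was retained at 0.933% in light (11 reads, interval 0.465 to 1.67%) and 12.6% in dark (11 reads, 6.26 to 22.4%). Its intron 4, a further member, stood at 0.841% in light (14 reads, 0.460 to 1.41%) and 7.69% in dark (7 reads, 3.06 to 15.8%). Both introns of PORC were thus lower in light with the intervals apart, while PORC itself was higher in light by a log2 ratio of 2.89 on the RPKM scale. PORB, its close relative, went the other way in both respects: intron 2 stood at 5.85% in light (98 reads, 4.75 to 7.13%) and 3.14% in dark (82 reads, 2.5 to 3.90%), and the RPKM of PORB was lower in light, by a log2 ratio of -1.02. Other low ratios of light over dark were in ATH13, an ABC1-like kinase (intron 16, 1.5% in light and 9.09% in dark), Cpn60beta2, a plastid chaperonin (intron 12, 0.997% and 5.64%), and APL1, a subunit of ADP-glucose pyrophosphorylase (intron 14, 1.44% and 7.94%). Intron 2 of GME, the GDP-mannose epimerase of ascorbate synthesis, stood at 2.65% in light (132 reads) and 9.68% in dark (126 reads), and intron 2 of HOL1, a methyltransferase of methyl halides, at 4.24% in light (302 reads) and 9.71% in dark (112 reads). Intron 3 of GPX2, a glutathione peroxidase, stood at 2.83% in light and 6.29% in dark.

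**Figure D2:**
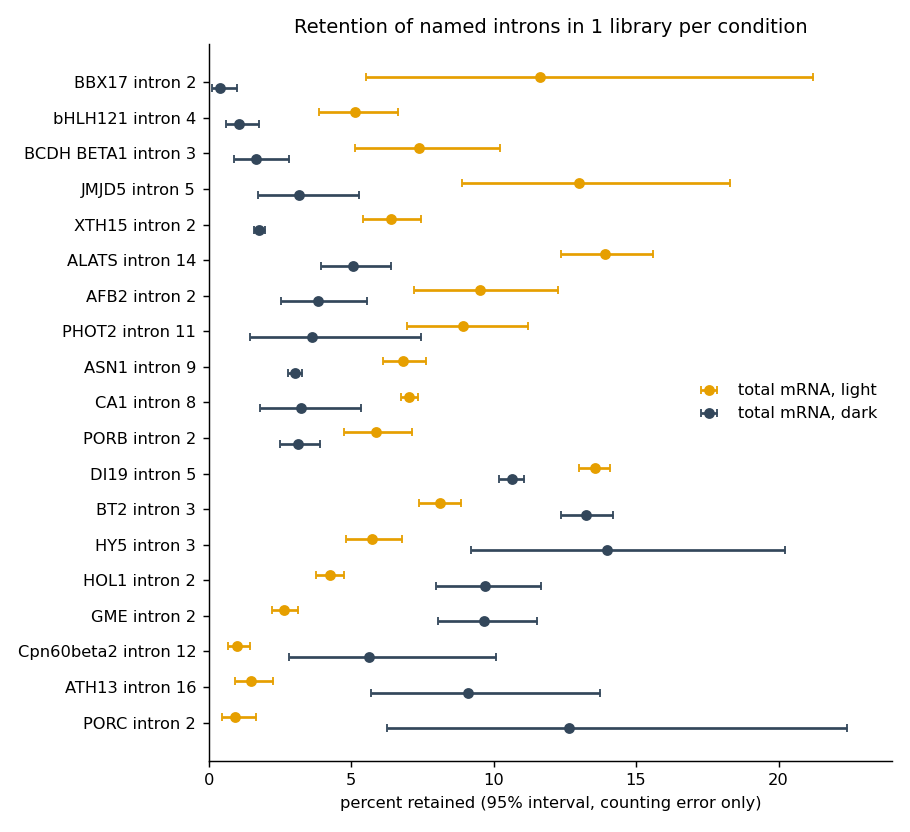
Percent retained of named introns in total mRNA in the light (upper point of each pair) and in the dark (lower point), with exact 95% intervals from the reads, 1 library each. The upper rows are introns higher in light, from BBX17 down to DI19, and the lower rows introns lower in light, ending with PORC intron 2 at 0.933% in light and 12.6% in dark.

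Among genes with a symbol, 5 members had the most event reads over both libraries. Intron 5 of DI19, a zinc finger protein of the drought-induced family, lies in the 3′ untranslated region and stood at 13.5% in light (2355 reads, interval 13.0 to 14.1%) and 10.6% in dark (2212 reads, 10.2 to 11.1%). DIN10, a dark-induced gene of the raffinose synthase family, had 8.96% in light and 7.79% in dark for intron 2, on 1136 and 899 reads. In both the intervals are apart, yet the ratios stay under 1.5-fold. Intron 8 of CA1, a plastid carbonic anhydrase, stood at 7.04% in light (2210 reads, 6.75 to 7.34%) and 3.24% in dark (15 reads, 1.81 to 5.34%), and intron 10 of GGT1, an aminotransferase of photorespiration, at 9.53% in light (1618 reads, 9.08 to 10.01%) and 4.5% in dark (55 reads, 3.39 to 5.85%). The RPKM of these photosynthetic genes was higher in light by log2 ratios of 5.34 for CA1 and 3.20 for GGT1. BT2, a BTB and TAZ domain protein, had 8.10% in light (482 reads) and 13.3% in dark (834 reads) for intron 3.

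Light signalling genes held 16 members in 10 of 30 expressed genes, of which 5 were higher in light, 4 lower and 7 between. The counts of this list and of those below stand beside 37.7% higher and 26.7% lower over all members, and 29.1% and 24.4% over all retained introns; each list holds few members, and nothing is read from its counts. HY5, the bZIP factor of photomorphogenesis, has a pair of them: intron 2 stood at 6.17% in light and 5.07% in dark, and intron 3 at 5.75% in light (135 reads, interval 4.82 to 6.8%) and 14% in dark (27 reads, 9.19 to 20.2%). PHOT2, a blue light receptor, has 3, and they differ in direction: intron 11 stood at 8.91% in light and 3.63% in dark, intron 14 at 6.73% and 5.38%, and intron 7 at 2.25% in light and 7.19% in dark. Introns of the same transcript thus lay on different sides, and the intervals of light and dark are apart for HY5 intron 3 and PHOT2 intron 7 but overlap for the other 3. Over all 16 members of the list, light lies below dark with intervals apart only in these 2. It lies above dark in 1, PIF5 intron 5, at 9.55% in light (7.23 to 12.4%) and 2.42% in dark (0.971 to 4.99%). PHYB, the main red light receptor, had 7.06% in light and 8.88% in dark for intron 3, with overlapping intervals. The circadian clock list held 11 members in 9 of 21 expressed genes, 5 higher, 4 lower and 2 between. The light and dark intervals are apart in 4 of the 11, with light above dark in 2 and below it in 2. The 2 above are LNK2 intron 6, at 8.38% in light and 3.08% in dark, and PRR7 intron 8, at 6.71% in light and 1.77% in dark. The 2 below are RVE8 intron 8, at 5.88% in light and 14.4% in dark, and LNK1 intron 5, at 2.57% in light and 6.67% in dark. RVE8 is a MYB-like activator of evening genes and LNK1 its coactivator, and these 4 introns were picked after seeing their values. TOC1, an evening clock component, had 9.40% in light and 6.33% in dark for intron 4, and RVE1, a MYB-like factor, 7.88% in light and 5.17% in dark for intron 5, with overlapping intervals in both.

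Factors of RNA processing were also represented. SR proteins, which mark exons for the spliceosome, held 7 members in 6 of 20 expressed genes, 3 higher in light, 1 lower and 3 between. Among those between were RS2Z33 intron 3 (12.6% in light, 9.45% in dark) and SR45a intron 6 (5.10% and 3.54%). The light and dark intervals are apart only in SR34a intron 8, which was lower in light. It stood at 1.49% in light (interval 0.770 to 2.61%) and 5.76% in dark (2.86 to 10.3%). Other splicing and RNA-binding factors held 11 in 8 of 18 genes, 5 higher, 1 lower and 5 between. Factors of nonsense-mediated decay and the exon junction held 3 in 3 of 6 genes, 2 higher in light, 0 lower and 1 between, among them UPF3 intron 11 at 5.01% in light and 1.00% in dark and UPF1 intron 16 at 3.52% in light and 5.12% in dark. The interval of UPF3 in light, 3.10 to 7.65%, lies above that in dark, 0.325 to 2.34%, and those of UPF1 overlap. Genes of auxin and growth held 12 in 10 of 20 genes, 3 higher, 5 lower and 4 between, among them AFB2, an auxin receptor (intron 2, 9.51% in light and 3.83% in dark), EXPA1, an expansin (intron 2, 3.08% and 5.08%), SHY2, an Aux/IAA repressor (intron 2, 4.85% and 5.49%), and BES1, a brassinosteroid factor (intron 2, 5.12% and 3.99%). Photosynthesis and chlorophyll genes held 3 in 2 of 37 genes, those of PORB and PORC. Of all 17684 expressed genes, 3689 (20.9%) held a member. The share was 33.3% of light signalling genes, 42.9% of clock genes, 30% of SR proteins, 44.4% of other splicing and RNA-binding factors, 50% of decay and exon junction factors, 50% of auxin and growth genes and 5.41% of photosynthesis and chlorophyll genes. No test was made of these shares.

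Genes with more than 1 member allow the same question over the whole class. There were 958 of them, and in 465 at least 2 members were past 1.5-fold. In 289 of these all such members lay the same way (180 higher in light, 109 lower), and in 176 they lay both ways, as in PHOT2. All lay the same way in 62.2% of these genes. Counted in the same way over all retained introns, 3335 genes had more than 1, in 1516 at least 2 were past 1.5-fold, and in 818 of those (54.0%) all lay the same way. That count includes genes with 5 or more retained introns, which the choice left out, so nothing is read from the difference.

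The length of an intron was not part of the choice, and the direction in light varied with it. Among members under 80 bases, 354 of 753 (47.0%) were higher in light and 145 (19.3%) lower. Among members of 200 to under 500 bases, 254 of 821 (30.9%) were higher and 234 (28.5%) lower. Over all retained introns the shares were 37.0% higher and 18.5% lower under 80 bases (n = 2016), against 24.9% higher and 25.9% lower at 200 to under 500 bases (n = 2736). The median log2 ratio was 0.47 under 80 bases, 0.25 at 80 to under 100, 0.08 at 100 to under 200, -0.01 at 200 to under 500 and 0.05 at 500 or more. With at least 200 reads in the percent in both libraries the shares were 43.3% higher and 13.5% lower under 80 bases (n = 245), and 23.7% higher and 24.7% lower at 200 to under 500 bases (n = 287). Internal introns at 15% or more, which the choice excluded, went the same way at other levels: 32.8% higher and 17.4% lower under 80 bases (n = 632), against 15.6% higher and 22.0% lower at 200 to under 500 bases (n = 672). In genes with 5 or more retained introns 32.7% were higher and 19.0% lower under 80 bases (n = 315), against 26.3% higher and 27.0% lower at 200 to under 500 bases (n = 270). First introns did not follow that order in the share higher in light: 25.9% were higher and 18.0% lower under 80 bases (n = 316), against 25.9% higher and 26.1% lower at 200 to under 500 bases (n = 973), and 28.3% higher and 25.6% lower at 500 or more (n = 566). Introns of 1 library share that library and its preparation, so this is a difference between these libraries. In polysomal mRNA the members had a median log2 ratio of light over dark of -0.65 under 80 bases (n = 112) and -0.71 at 200 to under 500 bases (n = 122). Over all listed retained introns the medians were -0.10 (n = 621) and -0.11 (n = 804). With at least 200 reads in both total libraries the members stood at -0.25 under 80 bases (n = 46) and -0.63 at 200 to under 500 bases (n = 53). All listed retained introns of that depth stood at -0.002 (n = 143) and -0.08 (n = 229). The division by length was chosen after seeing the values.

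**Figure D3:**
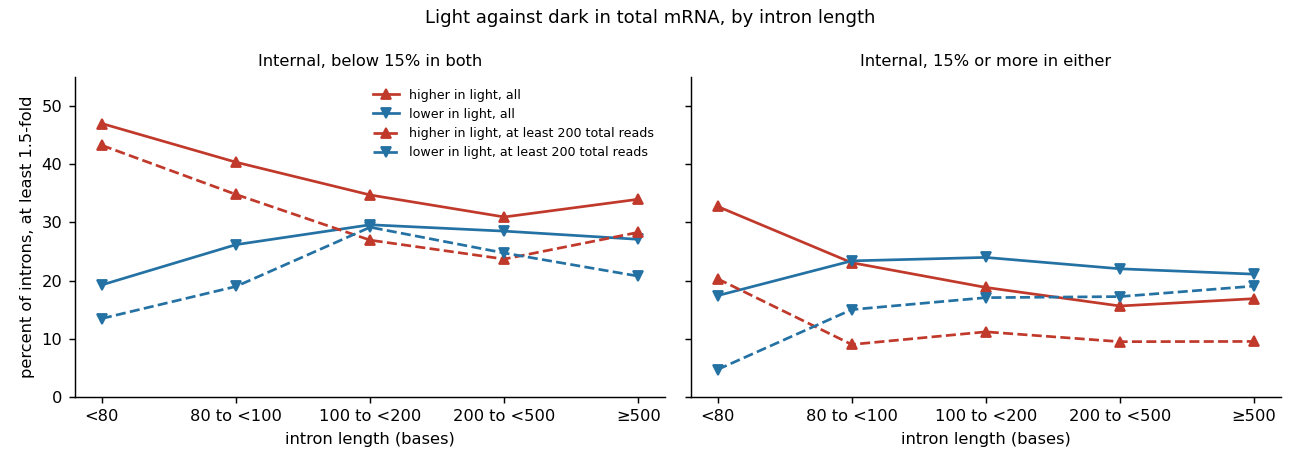
Percent of introns at least 1.5-fold higher or lower in light in total mRNA, by intron length, for internal introns below 15% in both libraries (left) and internal introns at 15% or more in either (right). Solid lines are all introns and dashed lines those with at least 200 reads in the percent in both libraries, and on the left the share higher in light is 47.0% under 80 bases and 30.9% at 200 to under 500 bases.

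The sequence and place of the members were set beside those of other introns. Of the 4883, 4848 could be placed on TAIR10.1 by counting introns along the named model. Their median length was 101 bases, against 110 for internal introns at 15% or more, 186 for first introns and 97 for the 66435 annotated internal introns of expressed genes that were not listed. Introns over 500 bases made up 4.17% of members, 8.08% of internal introns at 15% or more and 1.84% of annotated introns not listed. Among genes with a symbol the shortest were in RDH2 (61 bases) and BCAT-2, a branched-chain aminotransferase (62 bases), and the longest in KNAT6, a homeobox factor (3676 bases), and ABCG25, an abscisic acid exporter (3388 bases). The median GC content was 33.6% in members and 33.0% in annotated introns not listed. Ends of GT and AG were found in 98.2% of members and 98.9% of annotated introns not listed, and GC with AG in 1.49% and 1.01%. The donor start GTAAGT, read on the transcript strand at the first base, opened 9.10% of members and 9.74% of annotated introns not listed. The last intron of the model made up 25.1% of members and 15.6% of annotated introns not listed, with a median of 8 and 10 introns in the model. It made up 28.9% of internal introns at 15% or more, so the larger share is not particular to low levels.

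Most members would interrupt the protein if translated. In all, 4747 (97.9%) lay in coding sequence, 75 (1.55%) in a 3′ and 25 in a 5′ untranslated region, against 0.926% of annotated introns not listed in a 3′ untranslated region. Of internal introns at 15% or more, 4.73% lay in a 3′ untranslated region. Of those in coding sequence, 4259 (89.7%) held a stop codon in the reading frame, against 88.9% of annotated introns not listed. Only 107 (2.25%) had a length divisible by 3 and no stop, against 3.12% of annotated introns not listed. FRA8 intron 2, printed above, is of this kind: its 75 bases were retained at 7.12% in light (80 reads) and 12.7% in dark (202 reads). ABCG15 intron 8, also 75 bases, stood at 12.6% in light (59 reads) and 3.47% in dark (50 reads). Members with a stop were higher in light in 37.4% and lower in 26.8%, and the 107 open ones in 42.1% and 29.9%. The 381 with no stop and a length not divisible by 3 were higher in 42.3% and lower in 23.6%. Over all retained introns the shares were 29.1% and 24.4%. The choice used these percents, so nothing is read from the differences.

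Introns of the U12 type took a larger share of the members than of annotated introns not listed, with the counting intervals apart. A start of GTATCCTT or ATATCCTT at the first base of the transcript strand, or ends of AT and AC, were found in 43 of 4848 members, 0.887% (interval 0.643 to 1.19%), against 121 of 66435, 0.182% (0.151 to 0.218%). Internal introns at 15% or more were at 0.95% and first introns at 0.186%, so the larger share is not particular to low levels. Ends of AT and AC stood in 13 members (0.268%), against 0.0421% of annotated introns not listed. A further feature, the letters CCTTAAC or CCTTGAC in the last 30 bases, which resemble the U12 branch site, was found on the transcript strand in 16 of the 43 (37.2%) and in 12 of the other 4805 members (0.25%). The AT-AC introns of HRB1, AT1G02750, HD2C and CBP20 printed above hold one of them, and those of AT3G05700 and HDT4 hold neither. Of the 43 members, 20 (46.5%) were higher in light, 6 (14%) lower and the others between, against 37.7% higher and 26.7% lower of all members and 29.1% and 24.4% of all retained introns. Looking at U12-type introns was decided after seeing the values.

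Values of single U12-type introns rest on few reads. CBP20 intron 4 stood at 5.16% in light (16 reads, interval 2.94 to 8.37%) and 1.49% in dark (3 reads, 0.306 to 4.36%), and HD2C intron 3 at 6.73% in light (44 reads, 4.88 to 9.02%) and 5.58% in dark (22 reads, 3.49 to 8.45%). HRB1 intron 3 stood at 8.92% in light (19 reads) and 10.8% in dark (14 reads), AT1G02750 intron 3 at 9.68% (21 reads) and 7.76% (17 reads), and AT3G05700 intron 3 at 1.98% (4 reads) and 9.52% (8 reads). Light and dark intervals overlap in all 5. In the authors' deposited table AT3G05700 intron 3 has a p-value of 0.00259 and is among the light-regulated events, while HRB1 intron 3 has 0.552 and AT1G02750 intron 3 has 0.458, and neither is among them. The difference between these genes was not tested. CCP1 intron 9 is the U12-type member with the most reads. It stood at 8.40% in light (101 reads, 6.84 to 10.2%) and 3.25% in dark (22 reads, 2.04 to 4.93%), and its intervals are apart. The intervals are also apart in AT1G78420 intron 4, at 10.6% in light (74 reads) and 5.24% in dark (26 reads). AT4G00810 intron 2 went the other way with its intervals apart, at 2.18% in light (25 reads) and 10.3% in dark (19 reads).

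**Figure D4:**
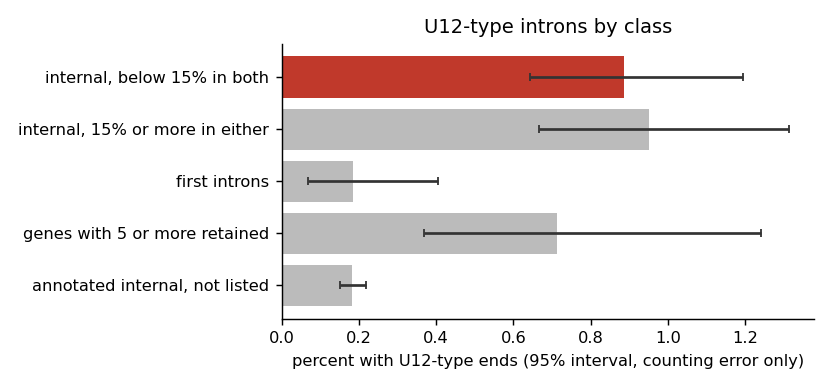
Percent of introns with U12-type ends in 5 classes, with exact 95% intervals (counting error only). Internal introns below 15% in both libraries (top bar) are at 0.887%, near internal introns at 15% or more, and annotated internal introns not listed as retained (bottom bar) at 0.182%.

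Polysomal percents were not used in the choice. The table of polysomal events lists an intron only when it reaches 5% in at least 1 of the polysomal libraries, and it holds 753 members (15.4%), against 4330 of all retained introns (31.3%). It gives no reads, so the depth behind its percents is unknown. Among the 753, 188 (25%) were higher in light in polysomal mRNA and 385 (51.1%) lower, with a median log2 ratio of -0.63. Over all retained introns listed there 18.4% were higher and 34.6% lower, with a median of -0.14. In total mRNA 232 (30.8%) of the same 753 introns were higher in light and 160 (21.2%) lower, with a median of 0.09. Of all 4330, 18.6% were higher and 16.9% lower, with a median of 0.009. Of the 232, 83 (35.8%) were also higher in polysomal mRNA and 101 (43.5%) were lower there, against 34.7% and 33.3% of all retained introns higher in total mRNA. Of the 160, 111 (69.4%) were also lower and 21 (13.1%) were higher, against 59.6% and 15.9% of all retained introns lower in total mRNA. The difference between the fractions was not tested, since each group is 1 library. An intron retained at low level may be listed through 1 polysomal library alone, and that limit acts on its light ratio. Nothing is therefore read from the order of these counts or from the difference with all retained introns. The polysomal library in the dark is the deeper of the pair, and the part of depth in the share listed was not tested.

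Polysomal percents were also set against total ones. In the dark, 273 (36.3%) of the 753 were higher in polysomal than in total mRNA and 208 (27.6%) lower, with a median log2 ratio of 0.08, against 19.7% higher and 30.1% lower over all retained introns. In the light 170 (22.6%) were higher in polysomal mRNA and 341 (45.3%) lower, with a median of -0.43, against 12.8% and 40.0%. An intron that entered the polysomal table had to reach 5% there in light or dark, and the choice of members capped their total percents below 15. Both limits act on this ratio, so nothing is read from the order of the counts or from the difference with all retained introns. With a bound of 10% in place of 15%, 187 members were higher and 77 lower in the dark, of 415, and with a bound of 20%, 332 were higher and 325 lower, of 1001. Centred on the median of all listed retained introns, which is -0.31 in the light, 227 (30.1%) of the members were higher and 270 (35.9%) lower there, against 17.0% and 31.3% of all. The authors' list of light-regulated events gives polysomal percents for 390 members without that limit, 269 of them under 5% in both polysomal libraries. In these, polysomal percents were higher than total ones for 63 and lower for 237 in the dark (median -0.94), and higher for 39 and lower for 287 in the light (median -1.57). In light against dark, 101 (25.9%) of the 390 were higher in polysomal mRNA and 176 (45.1%) lower, against 25.5% and 41.7% of the 1253 retained introns with polysomal percents in that list. Polysomal over total, the members were 16.2% higher and 60.8% lower in the dark and 10% higher and 73.6% lower in the light. Over all 1253, 21.1% were higher and 54.3% lower in the dark (median -0.71), and 12.8% were higher and 61.9% lower in the light (median -1.06). The members of that list were chosen by the authors on the total mRNA percents.

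Single introns spanned the whole range of polysomal levels. ECT5 intron 6 stood in polysomal mRNA at 20.3% in light and 0.332% in dark, and in total mRNA at 14.9% in light (118 reads) and 5.44% in dark (23 reads). Intron 4 of ARR11, a cytokinin response regulator, stood at 24.3% in light and 1.41% in dark in polysomal mRNA, and at 11.9% and 3.07% in total mRNA. Both were higher in light in both fractions, with a larger ratio in polysomal mRNA. They were named for their high polysomal ratios, which favours this order, so nothing is read from it. In total mRNA the ARR11 intervals overlap, at 6.89 to 18.9% in light (17 reads) and 0.990 to 7.15% in dark (5 reads). Intron 2 of GME was lower in light in both fractions: 1.36% in light and 10.5% in dark in polysomal mRNA. Intron 7 of NDT2, an NAD transporter, stood at 6.87% in light and 0.529% in dark in polysomal mRNA, and Hrd1A, an E3 ligase of the endoplasmic reticulum, and hemf2, a coproporphyrinogen oxidase, had 9.95% and 9.26% in light and 0.235% and 0.513% in dark.

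Among genes with a symbol, the lowest ratios of light over dark in polysomal mRNA were in CGLD27 (intron 4, 0.210% in light and 12.6% in dark), PHYE, a red light receptor (intron 2, 1.41% and 33.3%), AGL30, a MADS-box factor (intron 6, 2.86% and 66.7%), PTB2, a polypyrimidine tract-binding protein (intron 3, 1.96% and 39.1%), and NFU3 (intron 2, 1.09% and 21.6%). In total mRNA the choice itself held these introns below 15%, so the contrast with high polysomal percents is not a finding. PHYE intron 2 stood there at 12.3% in light (34 reads) and 6.67% in dark (9 reads). Some polysomal percents were very high. Intron 5 of SAC9, a phosphoinositide phosphatase, stood at 81.8% in polysomal and 4.1% in total mRNA in the light, and at 91.7% and 7.58% in the dark. Intron 2 of AST91, a sulfate transporter, stood at 33.3% in polysomal and 1.95% in total mRNA in the light. The number of reads behind the polysomal values is unknown, and percents such as 33.3% and 66.7% can arise from very few reads. In polysomal mRNA in the dark the host genes stood at 1.68 RPKM for PHYE, 5.50 for CGLD27 and 7.02 for AGL30. NFU3 stood there at 8.72 RPKM and PTB2 at 29.7 RPKM. At the other end, intron 3 of AGL26 stood at 0.535% in polysomal and 8.48% in total mRNA in the light, intron 8 of ARP8, an actin-related protein, at 0.671% and 8.88%, and the U12-type intron 5 of NRPD4, a subunit of the plant RNA polymerases IV and V, at 0.971% and 11.8%. In the dark the lowest ratios after ECT5 were in GK-1, a guanylate kinase (intron 10, 0.599% in polysomal and 5.69% in total mRNA), and A/N-InvC, an invertase (intron 4, 0.784% and 6.38%).

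**Figure D5:**
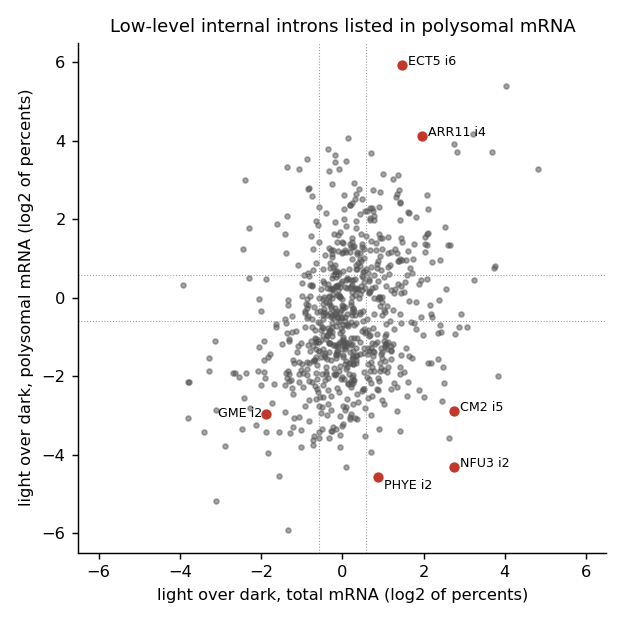
Log2 ratio of percent retained, light over dark, in total mRNA (x axis) and polysomal mRNA (y axis) for the 753 members listed in polysomal mRNA, 1 library per group. Dotted lines mark 1.5-fold; 385 introns lie below the lower horizontal line and 188 above the upper one.

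The host genes themselves stood near all genes in median abundance in total mRNA. Of the 3704, 3689 were measured in all 4 libraries with at least 1 RPKM on average. Their median was 11.6 RPKM in light and 10.7 RPKM in dark in total mRNA, against 11.3 and 10.5 RPKM over all 17684 such genes. In polysomal mRNA the median of the host genes was lower than that of all genes. It was 7.741 against 8.585 RPKM in light and 8.395 against 9.36 RPKM in dark. In total mRNA 381 (10.3%) were at least 2-fold higher in light and 183 (4.96%) lower, on log2 of RPKM + 1, against 10.7% and 5.73% of all genes. In polysomal mRNA 304 (8.24%) were higher in light and 312 (8.46%) lower, against 9.35% and 10.3%. The median of all genes was shifted there, by a log2 ratio of -0.17, and centred on it 397 (10.8%) of the host genes were higher and 213 (5.77%) lower, against 11.6% and 7.47% of all genes. Against total mRNA, fewer host genes were higher in polysomal mRNA: 290 (7.86%) higher and 790 (21.4%) lower in the dark, against 16.5% and 16.2% of all genes, and 201 (5.45%) higher and 1052 (28.5%) lower in the light, against 12.8% and 21.4%. Centred on the median of all genes, which is -0.14 in the dark and -0.31 in the light, 354 (9.60%) host genes were higher and 617 (16.7%) lower in the dark, against 18.9% and 12.7% of all genes, and 350 (9.49%) higher and 606 (16.4%) lower in the light, against 18.3% and 12% of all genes. The median host gene was 1.88 kb long and the median of all genes 1.65 kb, and the part of length in this was not tested. The choice needs at least 2 introns in a host gene, a limit not put on all genes. Its part was not tested either.

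Light ratios of retention were set beside those of the host gene's RPKM. The choice capped the percents behind them, so the values are a description. Among 521 members in genes higher in light, 185 (35.5%) were more retained in light and 150 (28.8%) less. Among 230 in genes lower in light, 82 (35.7%) were more retained and 61 (26.5%) less. Among 4116 in genes between, 1567 (38.1%) were more retained and 1090 (26.5%) less. Over all retained introns, 29.0% were more and 32.4% less retained in genes higher in light (n = 1441), 28.1% and 22.5% in genes lower in light (n = 631), and 29.6% and 23.98% in genes between (n = 11084). Across 4867 members with both values, Spearman's rho between the light ratios of retention and of RPKM was -0.0008, as a description over introns that share their libraries. Of the members, 1694 (34.7%) lie in genes whose span overlaps another annotated gene, and the use of strand is not given in the sources used here, so reads of a neighbour cannot be told apart there. Among the introns described, those of BBX17, XTH15, ASN1, PORB, PORC, PHOT2, CA1, BCDH BETA1, ABCB4, Cpn60beta2, APL1, GPX2, DIN10, RVE1, RS2Z33, SHY2, BES1, FRA8, BCAT-2, CCP1, LNK1, LNK2, AT3G05700, NDT2, ARP8, AGL26, ECT5 and PHYE are in such genes, and those of HY5, PIF5, SR34a, RVE8, PRR7, ALATS, GME, HOL1, DI19, GGT1, JMJD5, ATH13, NFU3 and AFB2 are not.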

How the data were processed

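Wild-type seedlings were sequenced as 1 library each of total and polysomal mRNA in light and dark. Per the submitters' processing notes the build is TAIR10; aligner and counting program: not given in the sources used here. Per the file headers, the authors deposited event read counts (some of them estimated counts with decimals), the percent of each event, a log2 ratio of light over dark and a p-value for total mRNA, and percent and log2 values without reads for polysomal mRNA. The header text names polysomal RPKM for that log2 ratio, whose values equal the ratio of the percents. RPKM and reads per gene were deposited by the authors in a further table, with estimated counts in polysomal mRNA.

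Members, gene lists and the rules for naming introns were chosen with earlier results of these data known. Introns named were the 5 highest and 5 lowest ratios of light over dark in total mRNA (at least 10 event reads and 50 reads in the percent in each library) and in polysomal mRNA, the 4 highest and 4 lowest ratios of polysomal over total mRNA, the 5 with most reads, up to 15 in the gene lists, up to 10 in the authors' list, 3 on each side of the bound, and the shortest and longest 2; not every one of them is reported here. Other U12-type introns, the open introns of FRA8 and ABCG15, and further introns of PORC, PHOT2, UPF3 and UPF1, and those of RVE8, LNK1, LNK2, PRR7, PIF5 and SR34a, were named after seeing their values. Totals behind each percent were recovered from reads and percent and were whole within 0.01 for 100% of retained introns. Ratios used the deposited percents with no pseudocount; RPKM used a pseudocount of 1 and a mean of at least 1 RPKM. No p-value was computed, as each group holds 1 library. Introns were placed by counting them along the model of the same name in RefSeq's annotation of TAIR10.1, whose models may differ from the authors'. In 4512 of 4891 donor or acceptor events (92.3%) the placed shifted sites had GT or GC and AG, against 8.15% when the neighbouring intron was used; 35 members were not placed. Counting was tested on simulated data. Python 3.11.15, pandas 2.3.3, numpy 2.4.6 and scipy 1.17.1 were used.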

Additional observations from a re-analysis of the deposited data

Results flagged for a closer look

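The direction of light against dark differed between the fractions in the members listed in polysomal mRNA: their median log2 ratio was -0.63 in polysomal mRNA and 0.09 in total mRNA. Over all 4330 listed retained introns the signs differed too, at -0.14 and 0.009. The 5% limit for entry in the polysomal list acts on the polysomal ratio, so nothing is read from the difference of the members. Among named introns, 7 were at least 1.5-fold apart in opposite directions, and the difference between fractions was not tested. Some of the rules for naming picked extreme polysomal ratios, which favours such cases. Of all 753 listed members, 101 were higher in total and lower in polysomal mRNA, and 21 the reverse. Over all 4330 listed retained introns these counts were 268 and 116. The log2 ratios of light over dark in polysomal mRNA were -4.56 for PHYE intron 2, -4.31 for NFU3 intron 2, -2.88 for CM2 intron 5, -2.12 for ABCG25 intron 2, -2.07 for KNAT6 intron 3 and -1.29 for CNGC4 intron 2, each above 0 in total mRNA, at 0.89, 2.74, 2.75, 0.90, 0.66 and 1.57. CSLB03 intron 2 stood at 1.15 in polysomal mRNA and -1.40 in total mRNA. In total mRNA in the dark, CNGC4 and CSLB03 are listed with 1 read and NFU3 and CM2 with 2, so their total ratios rest on almost no reads there. The reads behind the polysomal ratios are unknown.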

How the results depend on the processing

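Of the recomputed values, 81 stayed within 1.5 times the count reported (or within the interval of a share or median) and 23 did not. Leaving out genes that overlap another gene lowered the counts with the number of introns: in total mRNA 1179 of 3189 members were higher in light; in polysomal mRNA 125 of 474 were higher and 239 lower in light; polysomal over total mRNA gave 106 higher and 216 lower in the light and 170 higher in the dark; and of 2450 host genes 231 were higher in light in total and 180 in polysomal mRNA. A bound of 10% left 415 members in polysomal mRNA, 107 higher and 221 lower in light, with 112 higher and 157 lower than total mRNA in the light and 77 lower in the dark. A bound of 20% gave 332 of 1001 higher and 325 lower than total mRNA in the dark. At 2-fold, 111 were higher in polysomal than in total mRNA in the light and 118 lower in the dark.

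Chosen after seeing the data, leaving out members listed with 1 read gave 1227 higher in light in total mRNA, and the authors' light-regulated list gave 101 higher and 176 lower in light in polysomal mRNA, 39 higher than total mRNA in the light, and in the dark 63 higher and 237 lower, which turns the order of those counts. Beyond the smaller number of introns, the cause was not tested. No paired analysis was possible because each group holds 1 library, and for the same reason no library could be left out.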
